A study of Rattus norvegicus with 20 samples.

Results

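The cytosolic ribosomal protein genes are the genes for the proteins of the ribosome that translates the cell's nuclear messages. They were taken from a table of expression in rat milk fat as every row whose symbol begins with Rpl or Rps followed by a number and, at most, the letters a, l or x, together with Rplp0, Rplp1 and Rpsa; the S6 kinases, whose symbols also begin with Rps, were left out. The rule found 66 genes among the 16748 rows of the table. All 66 were above the lowest value of the table in at least 1 library, as were 14022 genes in all. They comprise 40 proteins of the large subunit and 26 of the small subunit, near copies included. The set does not hold every protein of the ribosome. Rplp2, Rps6 and Rps19, for example, had no row under those symbols. A mean of at least 1000 normalised counts was reached by 64 of the 66 genes. The exceptions were Rpl3l and Rpl39l.

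The libraries came from wild-type Sprague-Dawley rats with litters, which were given, on postnatal day 10, either lipopolysaccharide (LPS), the bacterial cell wall component that activates Toll-like receptor 4, or pyrogen-free saline, by injection. Milk was expressed by hand under light isoflurane anaesthesia after oxytocin, which all dams received, 2 h after the injection (P10) or 24 h after it (P11). RNA was isolated from the washed fat layer and sequenced from stranded libraries of polyadenylated RNA, with 5 libraries in each of the 4 groups. The libraries came from 14 dams, 7 on saline and 7 on LPS, and 3 dams of each kind gave a library at both times. The labels call the 5 libraries of a group biological replicates. The value columns carry no dam number, so the libraries of the 2 days are not fully independent and could not be paired.

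Each ribosome holds 1 copy of most of its proteins, assembled on ribosomal RNA in the nucleolus, and cells keep the messages for these proteins at similar levels. In mammals these messages begin with a C followed by a run of pyrimidines, the terminal oligopyrimidine tract, through which the kinase complex mTORC1 and the RNA-binding protein Larp1 control their translation and stability. The secretory epithelium of the lactating mammary gland makes large amounts of milk protein, and its fat globules carry out remnants of its cytoplasm with the RNA in them.

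Values are given as normalised counts, obtained by inverting the log2-scale transformation of the deposited table. They are not divided by transcript length, so a level is compared between libraries and not between genes. Sequencing depth cannot be read from them and is unknown. A library held 10743 to 12985 genes above the lowest value. Genes of milk proteins took 57.3 to 73.9% of all normalised counts in saline and 63.9 to 77.4% in LPS libraries at P10, and 22.6 to 35.9% and 24.1 to 37.6% at P11, without the saline library numbered 2. That P11 saline library had 62.8% and lay with the P10 libraries. Across genes it correlated with each P10 library at r of 0.976 to 0.986 and with each other P11 library at 0.874 to 0.932. The main comparisons with the P11 saline group are therefore also given without it.

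LPS changed no ribosomal protein gene past the threshold at either time. The test was limma's moderated test in a single model of the 4 groups, with Benjamini-Hochberg adjustment over all 14022 genes and an adjusted p under 0.05 as the threshold. At P10, 0 of the 66 genes passed, and 0% of all genes tested did. At an unadjusted p under 0.05 there were 0 members, against 622 of all genes. The median log2 difference between LPS and saline over the 64 members with at least 1000 counts was -0.034 at P10, with a lowest of -0.23 for Rpl28 and a highest of 0.22 for Rps26. With every library scaled to the same total of normalised counts the median became -0.36, where that of all genes was -0.29; 0 members passed, and 21 members and 993 genes had an unadjusted p under 0.05.

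Rps26, a small subunit protein beside the channel through which the message leaves, had 10748, 9864, 9448, 11533 and 11589.9 normalised counts in the P10 saline libraries. In the P10 LPS libraries it had 12631, 11831, 10646, 13879 and 12896. The LPS libraries were mostly higher, and the groups overlapped. The log2 difference was 0.22 ± 0.16 (SE), and it did not pass in limma (adjusted p = 1.0). The authors' deposited table for P10, which lists genes with an unadjusted p under 0.05, holds Rps26 with a log2 fold change of 0.241, a standard error of 0.117, a p-value of 0.0392 and an adjusted p of 0.475. Its only other member was Rpl39l, which is close to its floor here, with a log2 fold change of 4.33, a p-value of 0.0089 and no adjusted p. The authors' deposited table for P11 lists no member.

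At P11 again 0 of 66 genes passed, against 0.0856% of all genes tested, which is 12 genes, and 0 members had an unadjusted p under 0.05, against 1004 genes. The median over the 64 members was -0.096. Of the 66 members, 63 had a value lower in LPS than in saline libraries. This direction rested on saline library 2. Without it, 0 members passed, against 0.0642% of all genes, and the median was 0.071. Rplp0, which anchors the stalk of the large subunit, went from -0.071 ± 0.19 to 0.11 ± 0.15 when that library was left out. Rpl28 had the lowest difference, -0.34 ± 0.18 (adjusted p = 0.708 in limma), and -0.18 ± 0.15 without the library. The LPS effect at P11 minus that at P10 passed for 0 members, against 0.0357% of all genes, and 0 members and 635 genes had an unadjusted p under 0.05. In 0 members did the 5 LPS libraries all lie on one side of the 5 saline libraries. Over all genes they lay wholly below in 0.635% and wholly above in 0.378% at P10, and in 0.264% and 0.385% at P11.

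The family differed between the times of collection. Day, hours after the injection and any earlier milking cannot be told apart. On the scale of the deposited values, 52 of the 66 genes were lower at P11 than at P10 in saline dams and 0 were higher. Among all genes tested, 21.2% were lower and 25.6% higher. In LPS dams 54 of 66 were lower and 0 higher, against 22% lower and 30.9% higher among all genes. The median log2 difference over the 64 members was -0.56 in saline dams, where the median of all genes was 0.053, and -0.64 in LPS dams, where it was 0.10. Without saline library 2 there were 60 lower in saline dams, against 24.8% of all genes, with a median of -0.71. The LPS count then became 57, against 23.5%, because both contrasts share the model's estimate of spread. In a bulk sample of this kind, fewer cells or globules with these messages and fewer messages in each cannot be told apart. Nor can either be told from a shift of scaling, since with equal totals the direction was the opposite, as given below.

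**Figure D1:**
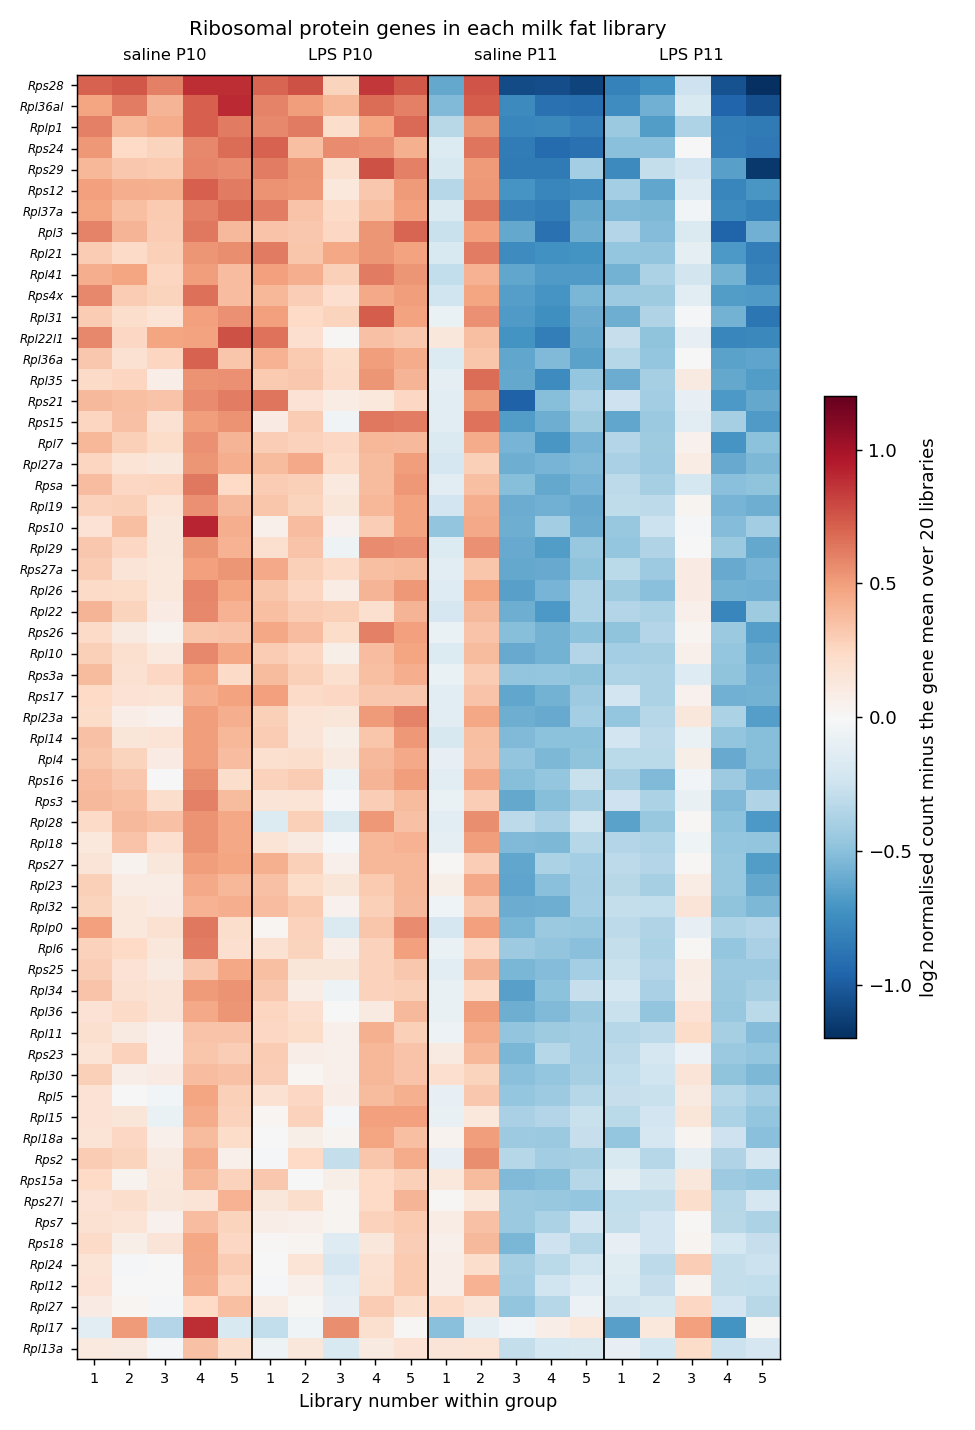
Each row is 1 of 61 ribosomal protein genes with a mean of at least 1000 normalised counts and each column 1 library, numbered as in the deposited table; colour gives the log2 normalised count minus the mean of the gene over the 20 libraries, and rows are ordered by the mean of the P11 minus P10 differences in saline dams without library 2 and in LPS dams. P10 libraries are red and P11 libraries blue in most rows, saline P11 library 2 is red like the P10 libraries, and the colours fade towards the bottom, where Rpl13a lies.

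The heatmap shows that the members moved together within a library. The median deviation of the 64 members from their own means was 0.28, 0.22, 0.13, 0.50 and 0.39 on the log2 scale in the P10 saline libraries. It was 0.30, 0.26, 0.075, 0.37 and 0.42 in the P10 LPS libraries. All 10 P10 libraries were above 0. At P11 the saline libraries had -0.12, 0.40, -0.57, -0.52 and -0.42, and the LPS libraries -0.33, -0.37, 0.03, -0.47 and -0.53. Apart from saline library 2, the highest P11 libraries were LPS library 3 and saline library 1, and the other 7 were all well below 0.

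Read library by library, the 5 P11 saline values of a gene lay wholly below its 5 P10 values in 1 member, against 5.23% of all genes. Without library 2 this held for 53 of 66 members, against 20.2% of all genes. In LPS dams it held for 39 members, against 18.3%. A P11 group wholly above its P10 group was found in 0 members in each of these comparisons, against 7.12% of all genes in saline dams, 24.9% without library 2 and 23.5% in LPS dams.

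The size of the change was not the same on every scale, and neither was its direction. The sum of normalised counts over the family was 1076878 ± 106664 (SD, n = 5) in P10 saline libraries, 1055596 ± 98070.3 (SD, n = 5) in P10 LPS libraries, 650862 ± 96301 (SD, n = 4) in P11 saline libraries without library 2, and 680898 ± 106709.9 (SD, n = 5) in P11 LPS libraries. All normalised counts of a library together came to 51.5 to 80.9 × 1e6 in saline and 60.0 to 99.3 × 1e6 in LPS libraries at P10, but 23.2 to 29.1 × 1e6 and 23.9 to 27.6 × 1e6 at P11, with 54.6 × 1e6 in saline library 2. The family and the total were both lower at P11, the total by more.

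As a share of all normalised counts the family was therefore larger at P11. It took 1.32, 1.91, 1.86, 1.64 and 1.56% in the P10 saline libraries and 2.72, 2.09, 2.27, 2.55 and 2.55% in the P11 saline libraries. In LPS dams it took 1.10, 1.04, 1.35, 1.88 and 1.21% at P10 and 2.44, 2.41, 3.31, 2.48 and 2.50% at P11. The P11 shares were all above the P10 shares on either agent, saline library 2 included. When every library was scaled to the same total, 49 members were higher at P11 in saline dams and 62 in LPS dams, and 0 were lower. Among all genes 56.2% and 71.8% were then higher. The medians over the 64 members became 0.57 and 1.01, where those of all genes were 1.04 and 1.66.

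Genes of milk proteins took most of the counts at P10. With them out of the denominator, the family took 5.01 ± 0.446 (SD, n = 5)% of counts in P10 saline and 4.58 ± 0.495 (SD, n = 5)% in P10 LPS libraries. At P11 it took 3.97 ± 1.0 (SD, n = 5)% in saline libraries, 3.56 ± 0.470 (SD, n = 4)% without library 2, and 3.86 ± 0.666 (SD, n = 5)% in LPS libraries. The P11 libraries were mostly lower on this scale. LPS library 3 with 4.96% lay among the P10 LPS libraries, and saline library 2 with 5.62% was above every P10 library. With libraries scaled to the same total outside the milk proteins, 24 members were lower in saline dams, against 15.4% of all genes. In LPS dams 16 were lower and 1 higher, against 12.7% and 41.8% of all genes.

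Relative to the median of all genes tested, the median member was lower at P11 on each of these scalings. Scaling a library shifts all its genes nearly alike, so these gaps agree largely by construction and are not separate evidence. The gap was -0.61 in saline and -0.74 in LPS dams on the deposited scale, -0.47 and -0.64 with equal totals, and -0.63 and -0.80 with equal totals outside the milk proteins. It was smaller, -0.29 and -0.17, after quantile normalisation.

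**Figure D2:**
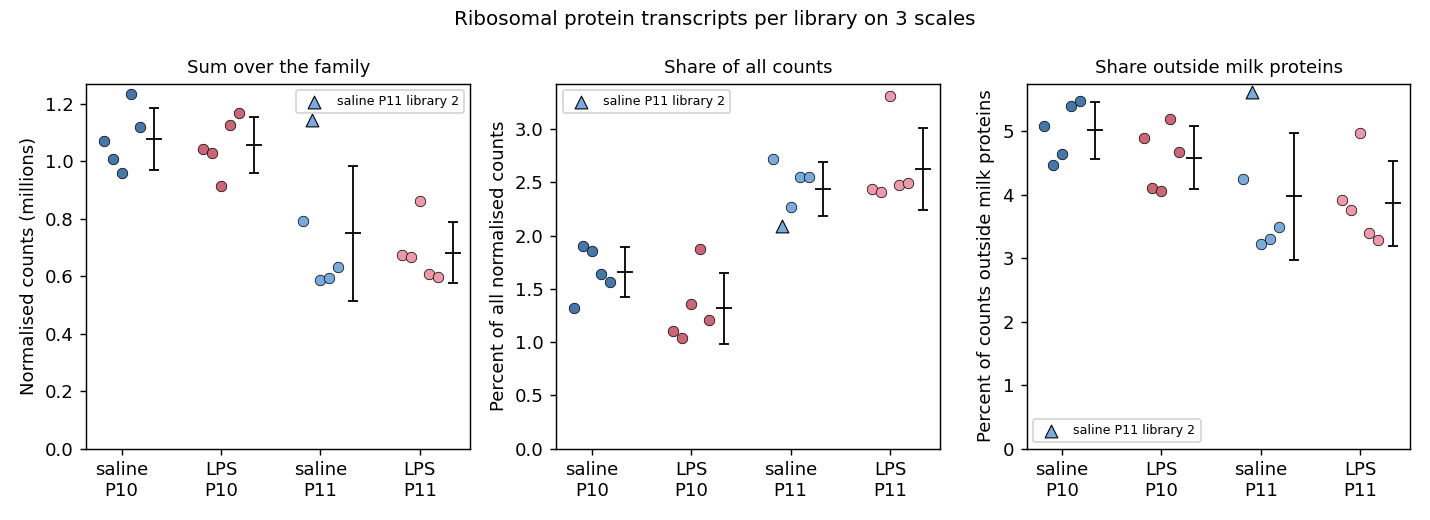
Points are the 5 libraries of each group and bars the mean ± SD; the panels give the sum of normalised counts over the 66 ribosomal protein genes (axis in units of 1e6), that sum as a percentage of all normalised counts, and as a percentage of the counts outside the milk protein genes. The P11 groups are lower than the P10 groups in the left panel apart from saline library 2 (triangle), higher in the middle panel, and mostly lower in the right panel.

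Falls of single genes below are on the deposited scale unless another is named. With equal totals, 49 members in saline and 62 in LPS dams were instead higher at P11. The stalk of the large subunit, which recruits the elongation factors, is built on Rplp0, to which pairs of the acidic proteins Rplp1 and Rplp2 attach. Rplp0 had 44422, 34628, 35846, 48959 and 36687 normalised counts in the P10 saline libraries and 27614, 44543, 21704, 23264 and 23089 in the P11 saline libraries. In LPS dams it had 32086, 38460.0, 28017, 39861 and 46775 at P10 and 25516, 24649.9, 29502, 24358 and 24772 at P11. Without saline library 2, the P11 saline values lay below every P10 saline value, whereas in LPS dams 1 P10 library was below the highest P11 library. The log2 difference was -0.56 ± 0.19 in saline dams (adjusted p = 0.0195 in limma), -0.74 ± 0.15 without library 2, and -0.50 ± 0.19 in LPS dams (adjusted p = 0.0290).

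Rplp1 had a larger difference. It had 32009, 27609, 28677, 34543 and 32283 normalised counts in P10 saline libraries and 16683, 30393, 12209.8, 12323 and 11895 in P11 saline libraries, and 31344, 32398, 24329, 29096 and 33659 and 15388, 13181, 16264, 11811 and 11647 in LPS libraries at P10 and P11. The groups were separate in LPS dams and, without library 2, in saline dams. The mean at P11 was 0.428 of that at P10 in saline dams without library 2 and 0.453 in LPS dams. The log2 differences were -0.99 ± 0.20 with all saline libraries, -1.23 ± 0.13 without library 2 and -1.14 ± 0.20 in LPS dams, with adjusted p of 7.96e-04, 2.15e-07 and 1.55e-04 in limma.

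Of the 40 large subunit genes, 31 were lower at P11 in saline dams, 35 without library 2, and 33 in LPS dams. Rpl36al, an intronless copy of Rpl36a, had the largest fall among them, from 6070.3, 6686, 5771, 7149 and 8099 normalised counts in P10 saline libraries to 3023, 7228, 2565, 2348 and 2331 at P11. In LPS dams it went from 6612, 6185, 5757, 6924 and 6649 to 2602, 2920.5, 3838, 2255 and 2105. Every P11 library but saline library 2 was below every P10 library. The log2 differences were -1.07 ± 0.23 in saline dams, -1.36 ± 0.14 without library 2, and -1.23 ± 0.23 in LPS dams (adjusted p = 0.00116, 1.11e-07 and 2.53e-04 in limma).

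Rpl3, which shapes the peptidyl transferase centre, fell to 0.484 of its P10 mean in saline dams without library 2 and to 0.524 in LPS dams. Rpl41, the shortest protein of the ribosome, fell to 0.509 and 0.510, and Rpl21 to 0.514 and 0.507. Rpl10, added late to the large subunit before it can join the small one, and Rpl4, which lines the exit tunnel, were nearer the family median, at 0.595 and 0.637, and 0.613 and 0.662. Rpl5 and Rpl11, which outside the ribosome can bind Mdm2 and so raise p53, had smaller differences, and Rpl11 did not pass in saline dams unless library 2 was left out. Rpl5 had log2 differences of -0.38 ± 0.15 in saline dams (adjusted p = 0.0498 in limma), -0.51 ± 0.13 without library 2, and -0.50 ± 0.15 in LPS dams (adjusted p = 0.0103). For Rpl11 they were -0.39 ± 0.16 (adjusted p = 0.0551 in limma), -0.55 ± 0.13 and -0.52 ± 0.16 (adjusted p = 0.0117).

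Rpl13a, which in human monocytes leaves the ribosome after interferon gamma to silence inflammatory messages, had 18277, 18159, 16538, 21469 and 19507 normalised counts in P10 saline libraries and 18721, 18851, 13857, 14540.3 and 14733 in P11 saline libraries. In LPS dams it had 16146, 18532, 14822, 18132 and 19023 at P10 and 15719, 14525, 19685, 14089.5 and 14631 at P11. The groups overlapped in both. The differences of -0.23 ± 0.13 in saline and -0.14 ± 0.13 in LPS dams did not pass (adjusted p = 0.150 and 0.348 in limma). Rpl12, Rpl24 and Rpl27 did not pass in either, with -0.23, -0.31 and -0.24 in saline dams and -0.28, -0.23 and -0.25 in LPS dams. Without saline library 2, Rpl12 passed on both agents (adjusted p = 0.0190 and 0.0486 in limma) and Rpl24 in saline dams (adjusted p = 0.0221). Rpl17 varied widely within groups, with 7322, 11425, 6279.9, 14779 and 7040.2 normalised counts in the P10 saline libraries, and its differences had an SE of 0.25.

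Of the 26 small subunit genes, 21 were lower at P11 in saline dams, 25 without library 2, and 21 in LPS dams. Rps28, a short protein at the site where the message leaves the small subunit, had the largest fall of the family. It had 13060.3, 13457, 12193, 14837 and 14836 normalised counts in the P10 saline libraries and 5223, 13524, 3817, 3834 and 3723 in the P11 saline libraries. In LPS dams it had 12974, 13615, 9675, 14461 and 13429 at P10 and 4566, 4843, 6740.2, 3880.1 and 3436 at P11. Every P11 library except saline library 2 was far below all P10 libraries. The P11 mean was 0.303 of the P10 mean in saline dams without library 2 and 0.366 in LPS dams. The log2 difference was -1.37 ± 0.27 in saline dams, -1.71 ± 0.16 without library 2, and -1.46 ± 0.27 in LPS dams, with adjusted p of 5.33e-04, 2.96e-08 and 1.91e-04 in limma. On the scale of equal totals it had -0.26 ± 0.21 in saline and 0.18 ± 0.21 in LPS dams, and neither passed.

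Rps12, a protein of the beak of the small subunit, fell to 0.441 of its P10 mean in saline dams without library 2 and to 0.527 in LPS dams. Rps24, mutated in some people with Diamond-Blackfan anaemia, fell to 0.456 and 0.489, and Rps29, a zinc-binding protein, to 0.503 and 0.456. Rpsa, also known as a laminin receptor precursor, was close to the family median at 0.575 and 0.613. So was Rps27a, which is made as a fusion with ubiquitin, at 0.584 and 0.623. Rps3, at the entry of the message channel, was at 0.582 and 0.699, and Rps16 at 0.643 and 0.626. Rps2 did not pass with all libraries, with -0.38 ± 0.18 in saline and -0.38 ± 0.18 in LPS dams (adjusted p = 0.0886 and 0.0786 in limma), but did in both without saline library 2 (adjusted p = 0.00193 and 0.0172).

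Rps18 passed in saline dams with -0.37 ± 0.14 (adjusted p = 0.0414) and did not in LPS dams with -0.22 ± 0.14 (adjusted p = 0.216); the difference between these, 0.15 ± 0.20, did not pass (adjusted p = 0.968 in limma).

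Measured against the family itself, a group of members stood apart from the rest on both agents. Each library was centred on the median of the 64 members, which removes any scaling between libraries, and the model was fitted again without saline library 2. In saline dams 12 members then fell by more than the family and 6 by less. In LPS dams 12 fell by more and 7 by less. Genes outside the family are measured against it too in this fit, so that 9.21% of all genes were lower and 68.8% higher in saline dams, and 8.88% and 69.6% in LPS dams. Of the members that fell by more, 11 of 12 in saline and 11 of 12 in LPS dams were shared, namely Rpl3, Rpl21, Rpl36al, Rpl37a, Rpl41, Rplp1, Rps4x, Rps12, Rps24, Rps28 and Rps29. The 6 that fell by less in saline dams, among them Rpl12, Rpl13a, Rpl24 and Rpl27, were all among the 7 in LPS dams. With saline library 2 in the fit, 10 fell by more and 2 by less in saline dams, against 8.19% and 55.5% of all genes, and 11 and 7 in LPS dams, against 8.27% and 66.0%. LPS against saline gave 0 members apart from the family at either time, with or without that library, against 0% of all genes in each of these fits. At an unadjusted p under 0.05 there were 0 members at P10 and 0 at P11 with all libraries, against 233 and 410 genes, and 1 and 0 without library 2, against 524 and 744 genes.

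In this fit Rps28 was -1.06 ± 0.11 from the family in saline dams and -0.86 ± 0.11 in LPS dams (adjusted p = 4.36e-08 and 4.31e-07 in limma). Rpl36al was at -0.72 ± 0.11 and -0.63 ± 0.11, and Rplp1 at -0.58 ± 0.12 and -0.54 ± 0.11. On the other side Rpl13a was 0.36 ± 0.11 above the family in saline and 0.45 ± 0.10 in LPS dams (adjusted p = 0.00440 and 3.96e-04 in limma), and Rpl12 0.29 ± 0.11 and 0.32 ± 0.10. Rplp0 did not differ from it past the threshold, at -0.09 ± 0.13 and 0.094 ± 0.12.

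The share of the family's counts that a gene took in each library describes the same differences without a model. It comes from the same libraries, and the genes shown were picked from that fit, so it is not separate evidence. Rps28 took 1.22, 1.34, 1.27, 1.2 and 1.33% in P10 saline libraries and 0.659, 1.18, 0.652, 0.646 and 0.589% in P11 saline libraries, where the second value is library 2. In LPS libraries it took 1.25, 1.32, 1.06, 1.29 and 1.15% at P10 and 0.678, 0.728, 0.782, 0.640 and 0.575% at P11. Library 2 was again close to the P10 libraries and all others at P11 were below them. Rpl13a took 1.71, 1.81, 1.73, 1.74 and 1.74% and 2.36, 1.65, 2.37, 2.45 and 2.33% in saline libraries at P10 and P11. It took 1.55, 1.80, 1.62, 1.61 and 1.63% and 2.33, 2.18, 2.28, 2.33 and 2.45% in LPS libraries. Here all P11 libraries but library 2 were above all P10 libraries.

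**Figure D3:**
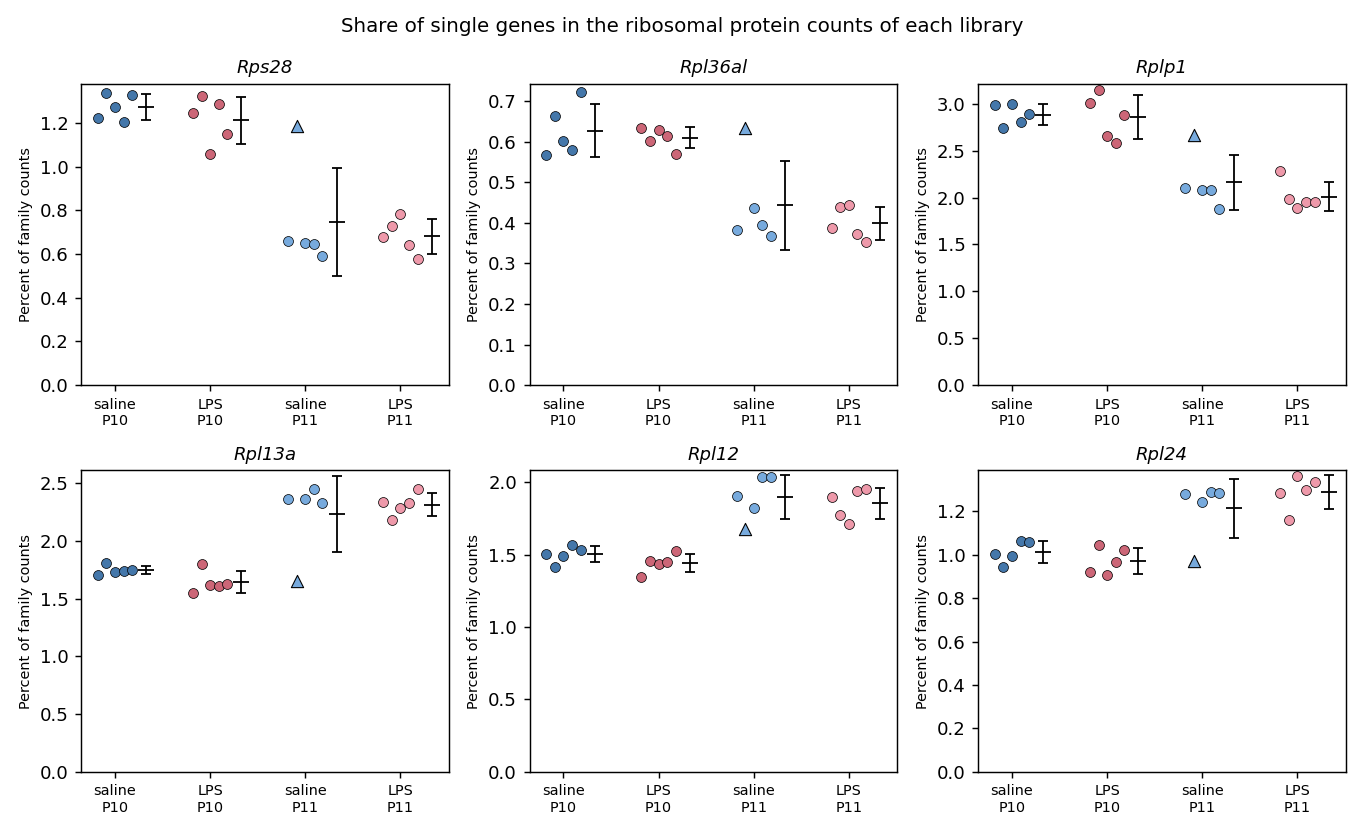
Each panel gives 1 gene, with points for the 5 libraries of each group, bars for the mean ± SD, and on the vertical axis the percentage of all ribosomal protein counts of the library that came from that gene; the triangle is saline P11 library 2. Leaving the triangle aside, the shares of Rps28, Rpl36al and Rplp1 in the P11 libraries are below, and those of Rpl13a, Rpl12 and Rpl24 above, those of every P10 library of the same agent. The triangle is also beyond the P10 saline libraries, on the side of the other P11 libraries, for Rps28, Rplp1 and Rpl12.

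Across the 64 members the time difference in saline dams without library 2 and that in LPS dams correlated at r = 0.926, and at 0.914 with all libraries. The 2 comparisons share no library, but the genes are not independent of each other, and each day's libraries were collected alike. The 2 subunits were at much the same proportion in every group. The sum over large subunit genes divided by that over small subunit genes was 1.5 to 1.56 in P10 saline, 1.5 to 1.58 in P10 LPS, 1.52 to 1.56 in P11 saline and 1.51 to 1.61 in P11 LPS libraries, ranges that overlap.

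**Figure D4:**
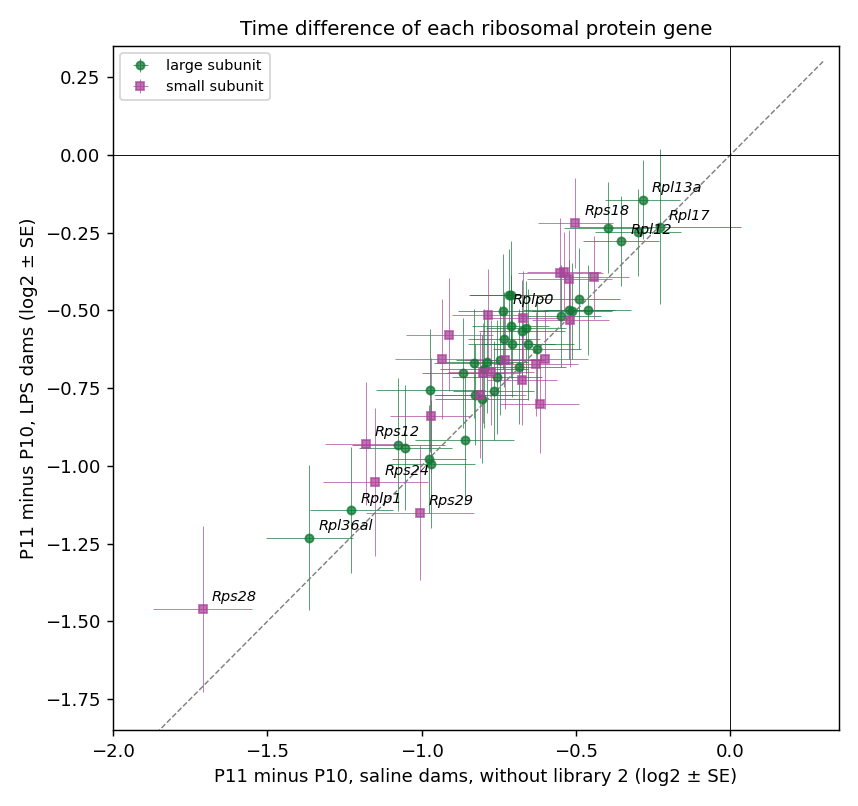
Each point is 1 of 61 ribosomal protein genes with its log2 difference between P11 and P10 in saline dams without library 2 on the horizontal axis and in LPS dams on the vertical axis; bars are the SE of the limma model, circles are large and squares small subunit proteins, and the dashed line marks equal values. Rps28, Rpl36al and Rplp1 lie at the lower left and Rpl13a at the upper right, and both subunits are spread along the line.

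Some members have a near copy, and reads shared between copies could have been split between them, so their values are less certain. Rpl22 and Rpl22l1, a pair in which the first represses the second in mouse, both fell. Rpl22 had log2 differences of -0.63 ± 0.16 in saline and -0.66 ± 0.16 in LPS dams, and Rpl22l1 -0.81 ± 0.20 and -0.76 ± 0.20 (adjusted p = 0.00448, 0.00236, 0.00280 and 0.00354 in limma). Without saline library 2 the saline differences were -0.79 ± 0.13 for Rpl22 and -0.97 ± 0.18 for Rpl22l1. Rps27 and Rps27l, the latter a p53 target in human cells, also both fell, with -0.47 ± 0.16 and -0.66 ± 0.16 for Rps27 and -0.45 ± 0.13 and -0.38 ± 0.13 for Rps27l. The saline values without library 2 were -0.60 ± 0.14 and -0.54 ± 0.12. Rpl36a fell less than Rpl36al, with -0.67 ± 0.16 in saline dams, -0.83 ± 0.13 there without library 2, and -0.77 ± 0.16 in LPS dams. LPS at P10 gave -0.014 ± 0.13 for Rps27l and -0.19 ± 0.20 for Rpl22l1, neither of which passed.

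The copies restricted to other tissues were close to absent. Rpl3l, which replaces Rpl3 in striated muscle, was above the floor in 2 of the 20 libraries, with 1.33 normalised counts in P10 saline library 3 and 1.24 in P11 LPS library 1. Rpl39l, known from testis, had 0, 0, 1.35, 0 and 0 in P10 saline, 25.3, 0, 8.03, 1.63 and 2.22 in P10 LPS, 1.36, 0, 0, 0 and 35.5 in P11 saline and 4.24, 0.546, 0, 2.75 and 1.26 in P11 LPS libraries. Single libraries set its group means. Its LPS difference at P10, 0.41 ± 0.21 on the deposited scale, did not pass in limma (adjusted p = 1.0).

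The starts of the genes were read from RefSeq promoters of the rat assembly GRCr8, a different build from that of the expression data. Of the 64 members with at least 1000 counts, 50 were matched by gene ID. A C at the annotated start followed by at least 4 more C or T was found in 17 of the 50, which is 34%, against 2.63% of the 33469 promoters of the table and 2.42% of those of other genes detected here. The word CCGGAAG, the core of ETS family binding sites, was found on either strand within the 300 bases around the start in 14 of the 50, which is 28.0%, against 8.75% of all promoters and 14.9% of those of other detected genes. The run and the word were searched apart, and an overlap of the 2 was allowed. Starts are those annotated and a run a few bases away was not counted.

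Sequences of 50 bases, from 20 before the annotated start, are shown for members with larger and smaller differences, with and without a run, to set the start of the message beside the fall. Capitals mark the run of C and T that begins at the annotated start. Rplp1 (chr8:71290843-71290892, minus strand), Rpl31 (chr9:49143091-49143140, plus strand) and Rpl17 (chr18:70856256-70856305, plus strand) have a run. Rps28 (chr7:15311304-15311353, minus strand), Rpl36al (chr6:93392229-93392278, minus strand) and Rpl13a (chr1:104748884-104748933, minus strand) have none at that base.
Rplp1: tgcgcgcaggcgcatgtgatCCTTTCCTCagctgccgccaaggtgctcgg
Rpl31: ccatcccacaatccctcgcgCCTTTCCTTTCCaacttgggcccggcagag
Rpl17: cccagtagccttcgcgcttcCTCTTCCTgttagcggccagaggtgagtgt
Rps28: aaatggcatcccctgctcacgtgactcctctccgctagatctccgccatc
Rpl36al: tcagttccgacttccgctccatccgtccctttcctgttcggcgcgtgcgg
Rpl13a: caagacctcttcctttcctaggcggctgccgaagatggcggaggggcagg

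Rplp1 and Rpl31, with runs of 9 and 12, fell by 1.23 and 0.86 on the log2 scale in saline dams without library 2, whereas Rpl17, with a run of 8, had -0.23 ± 0.26. Rps28 and Rpl36al, with the largest falls, and Rpl13a, with one of the smallest differences, have no run at the annotated start. Over the 17 members with a run the median difference was -0.73 in saline dams without library 2 and -0.66 in LPS dams. Over the 33 without it was -0.77 and -0.66. The differences ranged from -1.23 to -0.23 with a run and from -1.71 to -0.28 without in saline dams, so the 2 sets overlapped.

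Ribosomal proteins outside the naming rule and other parts of the translation machinery were counted from lists of their genes. The counts are to be read against all genes tested, of which 21.2% were lower and 25.6% higher in saline dams, 24.8% and 31.9% without library 2, and 22% and 30.9% in LPS dams. No list was tested against all genes. Fau, made as a fusion with a ubiquitin-like protein, and Rack1, a scaffold on the small subunit, fell on both agents, with log2 differences of -0.54 and -0.43 in saline and -0.51 and -0.40 in LPS dams. Of 67 mitochondrial ribosomal proteins, which serve the separate ribosome of mitochondria, 50 were lower and 2 higher in saline dams, and 47 lower and 3 higher in LPS dams, with medians of -0.55 and -0.59. With saline library 2 left out, 54 were lower and 2 higher in saline dams. The list of elongation factors had 10 genes and also held Tpt1 and Eef1e1, which are not elongation factors themselves. Of the 10 genes, 4 were lower and 2 higher in saline dams, and 6 and 2 there without library 2. In LPS dams 5 were lower and 2 higher. Eef2, which moves the ribosome along the message, had -0.72 and -0.75, and passed in both, while Eef1a1, which brings in the aminoacyl-tRNA, had 0.09 and 0.077, and passed in neither.

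Of 32 initiation factors, 9 were lower and 4 higher in saline dams, 11 and 6 there without library 2, and 11 lower and 7 higher in LPS dams. The medians of this list were -0.12 and -0.13. Against them Eif3a, the largest subunit of the eIF3 complex, rose by 1.27 and 1.67. Of 52 ribosome biogenesis genes, 7 were lower and 14 higher in saline dams, and 6 lower and 28 higher in LPS dams, with medians of 0.15 and 0.35. Leaving out library 2 gave 10 lower and 19 higher in saline dams. Nop56, a core protein of the box C/D particles that methylate ribosomal RNA, rose by 1.24 and 2.02, and nucleophosmin (Npm1) by 1.05 and 1.22. Polr1b, a subunit of RNA polymerase I, fell by 0.93 and 0.65. Whether this list and the ribosomal proteins differ was not tested.

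Of 36 genes of the mTORC1 and S6 kinase pathway, 20 were lower and 3 higher in saline dams, 21 and 6 there without library 2, and 21 lower and 7 higher in LPS dams. Mtor itself had -0.84 and -0.73 and the S6 kinase gene Rps6kb1 -0.80 and -0.91. Sesn2, a leucine-sensing inhibitor of the pathway, rose by 2.31 and 2.46, and Ddit4, a stress-induced inhibitor, by 1.56 and 1.60. Both were named after their values were seen, and the list's other inhibitors are not reported singly. The list also held Pdk1, which by symbol is a pyruvate dehydrogenase kinase and not a member of the pathway. Of 13 genes of ribosome rescue and quality control, 6 were lower and 0 higher in saline dams, 8 and 0 there without library 2, and 7 lower and 1 higher in LPS dams. LPS against saline gave 0 calls in each of these lists at both times. All these values are on the deposited scale.

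Summed counts of markers of some other cells differed between the times of collection. All 10 neutrophil markers were detected; their summed normalised counts were 56.6 to 203 in P10 saline, 71.9 to 712 in P10 LPS, 9164 to 30300.2 in P11 saline without library 2, 168 in that library, and 5533 to 17932 in P11 LPS libraries. Of these 10 genes, 7 rose in saline and 8 in LPS dams and 0 fell, with median log2 differences of 2.83 and 2.63. The 11 macrophage and monocyte markers summed to 741 to 1207, 584 to 2275, 7177 to 46418 and 6138 to 14785 in the same groups, with 1536 in saline library 2. Of these 11 genes, 4 rose and 0 fell on each agent, with medians of 0.55 and 0.54, and without library 2 5 rose and 1 fell in saline dams. The 6 myoepithelial markers summed to 1018 to 1627, 958 to 1954, 10044 to 12846 and 7760.3 to 11684, with 2364 in library 2. Of these 6 genes, 2 rose in saline and 4 in LPS dams and 0 fell, with medians of 0.42 and 0.63, and without library 2 4 rose and 1 fell in saline dams. In all 3 lists saline library 2 lay nearer the P10 than the other P11 libraries, as it did for the family. The macrophage and myoepithelial sums rose by far more than the median gene of their list, so they rest mainly on the more abundant markers. Among all genes tested, 25.6% were higher in saline dams, 31.9% there without library 2, and 30.9% in LPS dams. The 4 of 11 macrophage genes on each agent and the 2 of 6 myoepithelial genes in saline dams were near these shares. Whether any marker list differs from all genes was not tested. The 8 luminal epithelial markers, whose cells make the milk, summed to 82085 to 104012, 86654 to 101118, 134979 to 164246 and 146356 to 174457, with 5 rising and 3 falling on both agents. Of 10 lymphocyte markers in the table Ms4a1 was at the floor throughout, and of 3 keratinocyte markers Krt1 and Ivl were. Their sums stayed at or under 181 and 134. The 5 red blood cell markers summed to 13716 in P10 saline library 3 and to 544 or less in the others. The part of these cells in the change of the ribosomal protein genes was not tested.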

How the data were processed

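The authors deposited log2 values for 16748 genes in 20 libraries, named rlog. Their form, with a shared lowest value of 5.46, is that of a variance-stabilising transformation. Per the submitters' processing notes DESeq2 and rn6 were used, without versions; aligner, counter and gene annotation: not given in the sources used here. Per the file headers, the authors' table for each day gives a base mean (the mean of normalised counts), log2 fold changes, a Wald statistic, which is a score, and a p-value; it was read only for members it lists.

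Values were inverted to normalised counts, which did not return whole reads, so depth and counting error are unknown. Library numbers are those of the columns and do not pair samples. Genes at the lowest value everywhere (2726) were left out. One 4-group model was fitted with limma 3.58.1 (R 4.3.3) on the deposited log2 values, with a mean-variance trend, after being tested on simulated data. P-values are two-sided and Benjamini-Hochberg adjusted over 14022 genes. Errors are the model's SE or the SD between libraries. Alternatives were leaving out each library, quantile normalisation, median centring, other filters, no trend and each pair of groups alone; equal totals and centring on the family were added after seeing the data.

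The members and lists were chosen with earlier results of these data known. Genes were named by rule: up to 6 past the threshold or 3 not past it in each direction of a comparison, fixed roles and copies, and the highest and lowest levels, 30 in all; a few genes are not reported here, in the text or the figures, but stay in all counts and medians. Others were named after their values were seen.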

Additional observations from a re-analysis of the deposited data

Results flagged for a closer look

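In 10 of 120 values examined, covering the named genes and the share of the family in each group, 1 library lay far from the other 4 of its group by Dixon's gap test; chance alone marks about 1 in 20. LPS P11 library 3 accounted for 5. It had the highest family share of its group, 3.31% of all normalised counts, and the highest counts of Rpl5 (24451), Rps27l (3106), Rplp0 (29502) and Rpl11 (13615). Saline P11 library 2 had the highest counts of Rpl28 (12699.6), Rps28 (13524) and Rpl36al (7228) in its group. LPS P10 library 3 had the lowest count of Rps28 in its group, 9675, and saline P10 library 5 the highest of Rps27l, 3573.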

How the results depend on the processing

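No paired analysis was possible because the value columns carry no dam number. The absence of calls for LPS held under every alternative run. The median LPS difference moved to -0.36 at P10 with equal totals, and the difference of the LPS effects to 0.46. Leaving out 1 library gave medians from -0.074 to 0.013 at P10, -0.19 to 0.071 at P11 and -0.17 to 0.10 for the difference of effects. For P11 against P10 in saline dams, calls numbered 22 with quantile normalisation (median -0.29), 31 with the 2 groups alone, 24 with equal totals outside the milk proteins, and 49 in the opposite direction with equal totals (median 0.57). In LPS dams they numbered 19, of which 17 lower, with quantile normalisation (median -0.17), 17, of which 16 lower, with equal totals outside the milk proteins (median -0.26), and 62 in the opposite direction with equal totals (median 1.01); median centring gave a median of -0.91. Leaving out 1 library gave 36 to 60 calls (median -0.71 to -0.48) in saline and 49 to 57 (-0.73 to -0.57) in LPS dams. Of all genes, 15.4% were lower in saline and 12.7% in LPS dams with equal totals outside the milk proteins. With equal totals 56.2% and 71.8% were higher. Without saline library 2, with 60 calls in saline and 57 in LPS dams, 24.8% and 23.5% of all genes were lower. For quantile normalisation, the 2 groups alone and the other fits without 1 library, the share of all genes is not given. Those counts therefore cannot be read against it here. Without the milk proteins the family shares were 5.01% and 4.58% at P10 and 3.97% and 3.86% at P11, in saline and LPS libraries. The cause of these shifts was not tested.

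Without saline library 2, 54 of the 66 members had a positive LPS difference at P11, against 3 with all libraries. Some of the single genes named by the rule also changed sign. For LPS at P11 those were Rpl3l (-0.0053 with quantile normalisation, -0.0103 with median centring) and Rps27l (-0.035 without LPS library 3 to 0.1508 without saline library 2). For P11 against P10, quantile normalisation turned Rps2 (0.054) in saline dams and Rplp0 (0.22), Rpl5 (0.087), Rps2 (0.32), Rpl4 (0.069) and Rpl3l (-0.0101) in LPS dams. Median centring turned Rpl3l (-0.22) in LPS dams. With Rpl5 in saline dams, an adjusted p near the threshold was lost in some settings. Depth is unknown, so counting error could not be set apart from the spread between libraries.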
